A study of Mus musculus with 4 samples.

Results

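Chromosome 15 of B16-F10 cells, a mouse melanoma line, held 3726 of the 72251 accessible regions found in 4 ATAC-seq libraries. ATAC-seq uses the Tn5 transposase to insert sequencing adapters into open DNA, so that reads pile up over promoters, enhancers and other sites free of nucleosomes. The calls of the 4 libraries, positions 1-based on GRCm39, were merged where they overlapped by 1 bp or more, and every merged region on chromosome 15 was taken. The 252 regions whose middle lay between 88 and 95 Mb, called the stretch here, are described apart from the other 3474, and the 67461 regions of the other 18 autosomes serve as the comparison. Regions were thus chosen by the peak calls themselves and by position, and the stretch was set apart with earlier results of these data in view, so what follows on its calls and heights is a description and not a test.

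Of the libraries, 2 were labelled knockout (KO) for Ssbp4 and 2 wild type (WT), all from cryopreserved B16-F10 cells. The knockout cells were electroporated with Cas9 and several guide RNAs targeting Ssbp4. A control guide cutting between genes on chromosome 2 is described, but not which wild-type cells received it. The labels do not say whether the edited cells were 1 clone or a pool, nor whether the 2 libraries of a genotype came from separate cultures, so the spread between replicates may be technical. With 2 libraries against 2, an exact two-sided permutation test cannot go below p = 0.333, and no p-value is given.

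SSBP4 belongs to a family of single-stranded DNA-binding proteins that stabilise LDB1, a cofactor which bridges LIM-domain and GATA transcription factors and helps enhancers contact promoters. Open regions away from promoters, often narrow and cell-type specific, are where such complexes are known to act, while promoters of widely expressed genes tend to be open in most cells. Mouse chromosome 15 carries the melanocyte factor gene Sox10, the oncogene Myc, the cholesterol regulator gene Srebf2, the squalene epoxidase gene Sqle and the Hoxc cluster. Which regions belong to these genes, and whether the Ssbp4 locus on chromosome 8 bears out the knockout labels, was not analysed here, since gene positions of this build were not used. Regions are therefore named by position.

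The knockout libraries had 50068 and 57698 calls on chromosomes 1 to 19, X and Y in replicates 1 and 2, and the wild-type libraries 59215 and 63080. Their median fold enrichment on the other autosomes was 4.59 and 4.74 in the knockout libraries, against 5.87 and 6.20 in wild type, so both knockout libraries were less enriched over background. The part of this difference in the counts of gained and lost regions was not tested. On chromosome 15 the knockout libraries had 2549 and 2960 calls and the wild-type libraries 2997 and 3142. As a share of all calls this was 5.09% (Wilson 95% interval 4.90 to 5.29) and 5.13% (4.95 to 5.31) in the knockout, against 5.06% (4.89 to 5.24) and 4.98% (4.81 to 5.15) in wild type. The 4 intervals, which cover counting error only, overlapped, so chromosome 15 took the same share of the calls in both genotypes within counting error. The stretch held 163 and 192 knockout calls (0.326% and 0.333% of all calls) and 196 and 207 wild-type calls (0.331% and 0.328%).

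Chromosome 15 was densely open. It had 36.9 regions per Mb between its first and its last region, and 2 of the 18 other autosomes had more, where the median was 28.7. The regions were not evenly laid along it. The 54 Mb from 3 to 57 Mb had 1025 regions, the 13 Mb from 75 to 88 Mb had 1130, or 86.9 per Mb, and the 9 Mb from 95 Mb to the end had 696, or 77.3 per Mb, with blocks drawn after the counts were seen. Between 13 and 25 Mb there were 40 regions in all. Of 101 windows of 1 Mb from 3 Mb on, only 1, from 21 to 22 Mb, had no region. The fullest window, from 79 to 80 Mb, held 137. The stretch, with 36.0 regions per Mb, is a sparser gap between the 2 dense blocks.

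**Figure D1:**
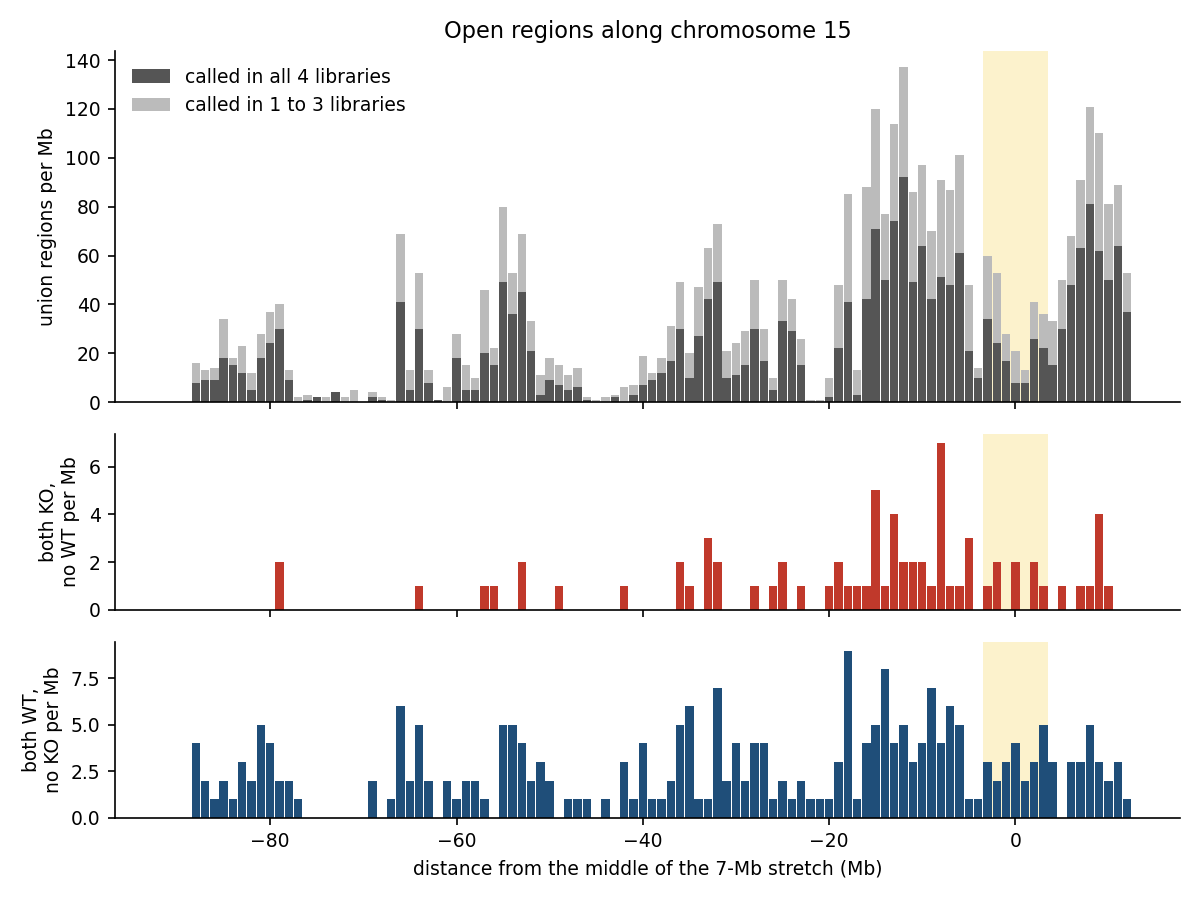
Union regions per 1-Mb window of chromosome 15 against the distance from the middle of the 7-Mb stretch (shaded), top panel; the lower panels count regions called in both knockout and no wild-type library, and in both wild-type and no knockout library. The shaded stretch holds 252 regions and lies between blocks of 86.9 and 77.3 regions per Mb.

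Most regions were shared by all libraries. On chromosome 15, 2202 regions (59.1%) were called in all 4, against 60.9% on the other autosomes. Regions called in both knockout libraries and neither wild-type library, gained regions, numbered 73 on chromosome 15 (1.96%), where 1.5% of the regions of the other autosomes were gained. Regions called in both wild-type and neither knockout library, lost regions, numbered 252 (6.76%), where 7.06% were lost on the other autosomes. Of the 18 other autosomes, 4 had a higher and 14 a lower share of gained regions, and 12 had a higher and 6 a lower share of lost regions. Chromosome 15 thus lay inside the range of the other autosomes for both, which ran from 0.468% to 3.24% for gained and from 4.27% to 10.3% for lost regions. The counts depend on the lists. With lists of equal length there were 102 gained and 131 lost regions outside the stretch, against 65 and 230 in the full lists, and 10 gained and 14 lost inside it, against 8 and 22. Leaving out 1 library gave up to 283 gained regions outside and 23 inside (without knockout replicate 1), and up to 458 lost regions outside (without knockout replicate 2 or without wild-type replicate 1) and 42 inside (without wild-type replicate 1).

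Regions found in a single library made up 706 of the 3726 (18.9%), against 16.8% on the other autosomes. Knockout replicate 1 alone held 103 of these, knockout replicate 2 held 232, wild-type replicate 1 held 126 and wild-type replicate 2 held 245, so in each genotype the longer list had the more private regions. In the same order these were 2.76%, 6.23%, 3.38% and 6.58% of the regions, against 2.34%, 4.86%, 2.93% and 6.63% on the other autosomes. A further 241 regions (6.47%) were missing from knockout replicate 1 alone and 49 (1.32%) from knockout replicate 2 alone. On the other autosomes these shares were 6.88% and 1.41%.

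Gained and lost regions were spread differently along the chromosome. The dense block from 75 to 88 Mb held 30 of the 73 gained regions, 2.65% of its own regions, and 57 lost regions (5.04%). The sparse block from 3 to 57 Mb held 12 gained regions (1.17%) and 103 lost regions (10.0%). From 95 Mb to the end there were 8 gained (1.15%) and 23 lost regions (3.30%). Inside the stretch 8 regions were gained (3.17%) and 22 lost (8.73%), both shares above those of the other autosomes, though the gained share rests on 8 regions. The windows of 1 Mb with the most gained regions lay at 83 to 84 Mb, with 7 gained and 4 lost of 91, and at 76 to 77 Mb, with 5 gained and 5 lost of 120. The window with the most lost regions, at 73 to 74 Mb, had 1 gained and 9 lost of 85. All 3 are among the fuller windows, and their shares were 7.69%, 4.17% and 1.18% gained and 4.40%, 4.17% and 10.6% lost.

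Gained and lost regions on chromosome 15 were mostly weak calls. Ranked by the deposited −log10 p-value within its own list, every library's call can be given a percentile. In both knockout lists 72 of the 73 gained regions ranked under the median, and in both wild-type lists 231 of the 252 lost regions (91.7%) did, against 92.5% of lost regions on the other autosomes. Calls above the median of both lists numbered 0 among the gained and 14 among the lost regions (5.56%), against 0.296% of gained and 4.24% of lost regions on the other autosomes. Gained regions had a median width of 752 bp, lost regions 545 bp, and regions called in all 4 libraries 1191 bp. In the stretch lost regions lay a median of 23.6 kb from the nearest region shared by all libraries, against 11.4 kb on the rest of chromosome 15 and 11.8 kb on the other autosomes. Beyond 50 kb the order was the other way, with 3 of 22 (13.6%) in the stretch, against 24.3% on the rest of chromosome 15 and 18.4% on the other autosomes.

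The gained regions of the stretch had low summits. For each call, the number of reads piled up at the summit and the local background were recovered from the deposited fold enrichment and p-value. At chr15:94163334-94164352 the summit pileups were 47 and 57 reads in the knockout libraries, with no wild-type call. At chr15:91889244-91891491, a region of 2248 bp, they were 72 and 46. At chr15:91670082-91670815 they were 42 and 45, and at chr15:89341648-89342180 they were 48 and 47. These stood at or below the 36.0th percentile of their lists.

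The lost regions of the stretch reached higher. The highest in rank was chr15:94374938-94375666, 729 bp wide, which had no call in either knockout library and pileups of 185 and 181 reads in the wild-type libraries, at fold enrichments of 11.0 and 11.3. The lowest knockout summits called on chromosome 15 had pileups of 32 and 33 reads. No knockout value is known for a region without a call. Next came chr15:91719282-91719894, with no knockout call and 111 and 122 wild-type reads, chr15:92600111-92600740, with 98 and 122, and chr15:88625506-88626083, with 74 and 86.

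On the rest of the chromosome the highest-ranked gained region was chr15:34215683-34216236, with 172 and 223 reads in the knockout libraries and no wild-type call. Its fold enrichment was only 2.83 and 3.26, so it stood on a high local background. The next were chr15:65593683-65594137 with 71 and 60 reads, chr15:68008461-68009339 with 57 and 61, and chr15:12375450-12376203 with 73 and 99. None was above the median of both knockout lists.

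Of the lost regions outside the stretch, 13 were above the median of both wild-type lists. The highest in rank was chr15:7450349-7450888, with no knockout call and 188 and 229 reads in the wild-type libraries at fold enrichments of 11.7 and 12.8. The region chr15:95117751-95118631, 881 bp wide and just past the end of the stretch, had 196 and 203 wild-type reads. The regions chr15:39901742-39902204 and chr15:72000972-72001607 had 175 and 238, and 164 and 201 wild-type reads. All 4 were between 463 and 881 bp wide and lay in different parts of the chromosome.

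The regions called in all 4 libraries allow the height of the same site to be set side by side. To make the libraries comparable, summit pileups were scaled so that each library's median deviation from the 4-library mean was the same over the other autosomes. The log2 ratio of knockout to wild type was taken relative to its median on those autosomes. A negative value means lower in the knockout than at the median region of the other autosomes. Before this scaling the median ratio on those autosomes was -0.37 on the log2 scale, so lower raw pileups in the knockout were the rule across the genome.

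Over the 2063 shared regions of chromosome 15 outside the stretch, the median relative log2 ratio was 0.020, with quartiles of -0.17 and 0.17. The other autosomes had quartiles of -0.19 and 0.16 around their median, so the rest of chromosome 15 and the other autosomes had nearly the same distribution. Taken whole, chromosome 15 stood at 0.013, and the 18 other autosomes ranged from -0.09 to 0.12 with an SD of 0.05. After scaling, 681 of the 2063 regions (33.0%) were higher in both knockout than in both wild-type libraries and 599 (29.0%) were lower, where 30.9% and 30.7% of the regions of the other autosomes did so.

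The stretch from 88 to 95 Mb was lower. Its 139 shared regions had a median relative log2 ratio of -0.095, with quartiles of -0.43 and 0.12. Scaled pileups were lower in both knockout than in both wild-type libraries in 62 of the 139 (44.6%), where the other autosomes had 30.7%, and higher in 40 (28.8%), where they had 30.9%. A relative log2 ratio under -0.5 was found in 28 regions (20.1%), where 7.49% of the regions of the other autosomes lay that low, and a ratio above 0.5 in 6 (4.32%), against 4.72%. The lower tail was thus fuller and the upper tail was not. Each pairing of a knockout with a wild-type library gave a negative median, between -0.12 and -0.05. Without wild-type replicate 1 the median of the stretch was -0.043, the value of this kind nearest 0.

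Among 7-Mb windows laid on the same grid with at least 20 shared regions, the stretch was the lowest of 14 on chromosome 15. Of 328 such windows on the other autosomes, 29 were lower and 299 higher, and they ranged from -0.23 to 0.64. As a whole, then, the stretch was low but not outside the range of the genome.

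**Figure D2:**
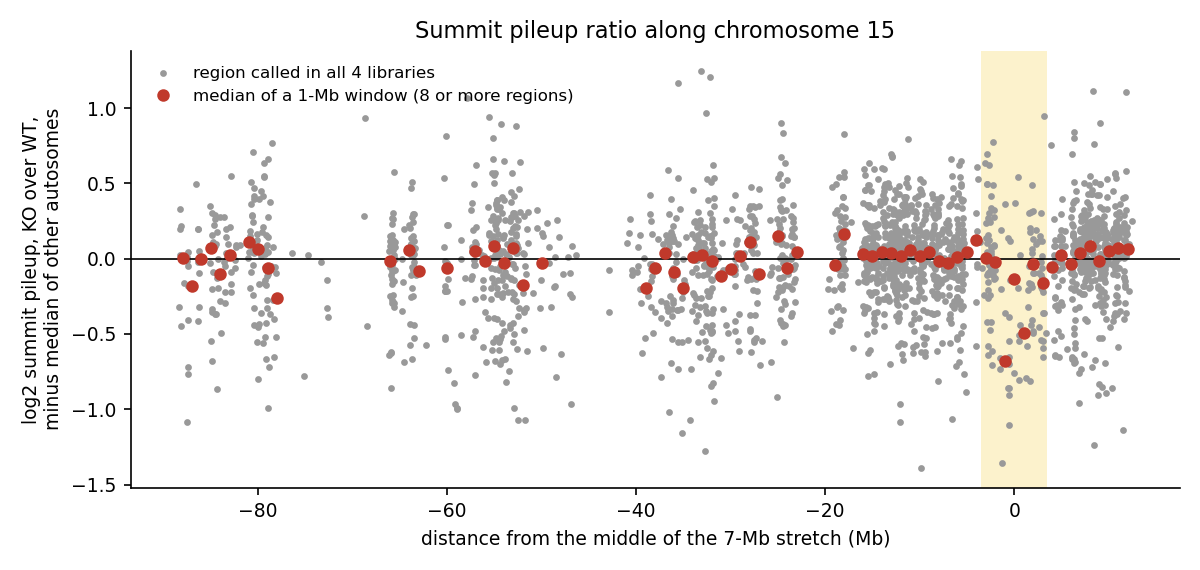
Relative log2 summit pileup ratio (knockout over wild type, minus the median of the other autosomes) of each shared region of chromosome 15 against its distance from the middle of the 7-Mb stretch (shaded), with medians of 1-Mb windows in red. Red points are drawn for windows with 8 or more regions, of which 2 in the shaded stretch lie at -0.68 and -0.49; the window from 32 to 33 Mb, with 5 regions and a median of -0.97, has no red point.

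The lowest window medians lay in a few megabases, but low regions were also found elsewhere in the stretch. Outside 90 to 91 and 92 to 93 Mb it had 114 shared regions. Of these, 13 (11.4%) had a relative log2 ratio under -0.5 and 6 (5.26%) one above 0.5, against 7.49% and 4.72% on the other autosomes. By 1-Mb window, the stretch had medians of 0.003 at 88 to 89 Mb (34 shared regions), -0.02 at 89 to 90 Mb (24 regions), -0.68 at 90 to 91 Mb (17 regions), -0.13 at 91 to 92 Mb (8 regions), -0.49 at 92 to 93 Mb (8 regions), -0.03 at 93 to 94 Mb (26 regions) and -0.16 at 94 to 95 Mb (22 regions). With 8 or more shared regions per window, the windows at 90 and 92 Mb were the lowest of 68 on chromosome 15. No window among 1408 on the other autosomes was as low as either, the lowest there being at -0.42. With 5 or more shared regions per window, a window outside the stretch, from 32 to 33 Mb, was lower than both, with a median of -0.97 over 5 regions. The lowest of 1624 such windows on the other autosomes was then at -0.67, above the windows at 32 and 90 Mb, and 5 of them were below the window at 92 Mb. These windows were singled out because their values were low.

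The window from 32 to 33 Mb held 15 regions, 2 lost (13.3%) and 0 gained, where 7.06% and 1.5% were so on the other autosomes. Of its 5 shared regions 4 were lower in both knockout libraries after scaling, where 30.7% of the regions of the other autosomes were. At chr15:32542979-32543939 the knockout libraries had 68 and 81 reads and the wild-type libraries 175 and 208, a relative log2 ratio of -0.997. At chr15:32575551-32576653 the knockout libraries had 52 and 88 reads and the wild-type libraries 152 and 197, a ratio of -0.99. At chr15:32306645-32307440 the knockout libraries had 53 and 78 reads and the wild-type libraries 138 and 190, and at chr15:32206968-32207859 the knockout libraries had 57 and 61 reads and the wild-type libraries 115 and 158. In these 4 regions the genotypes did not overlap, before or after scaling. Before scaling, 64.9% of the regions of the other autosomes were lower without overlap. The fifth and tallest, chr15:32920556-32921852, had 1025 and 1325 reads in the knockout libraries and 1404 and 1613 in the wild-type libraries, a ratio of -0.0034. Of the 5 shared regions of this window, the tallest thus had the ratio nearest 0.

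In the window from 90 to 91 Mb the libraries of each genotype kept together. The median scaled log2 pileup, where 0 is the median of the other autosomes, was -0.27 and -0.20 in the knockout libraries and 0.58 and 0.58 in the wild-type libraries. The 2 groups did not overlap, and the gap between them was far wider than the gap within either. In the window from 92 to 93 Mb the values were -0.82 and -0.76 in the knockout libraries, against -0.35 and -0.34 in wild type. From 91 to 95 Mb the knockout medians lay below the wild-type medians in every window, by less than at 90 to 91 Mb. This order is not particular to the stretch, since it also held on the other autosomes. On the rest of chromosome 15 the medians were -0.03 and -0.03 in the knockout libraries, against 0.08 and 0.06 in wild type. At 88 to 89 Mb, by contrast, the knockout values of -0.55 and -0.61 lay between the wild-type values of -0.48 and -0.71, and at 89 to 90 Mb the knockout values of 1.26 and 1.24 lay between the wild-type values of 1.35 and 1.20.

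**Figure D3:**
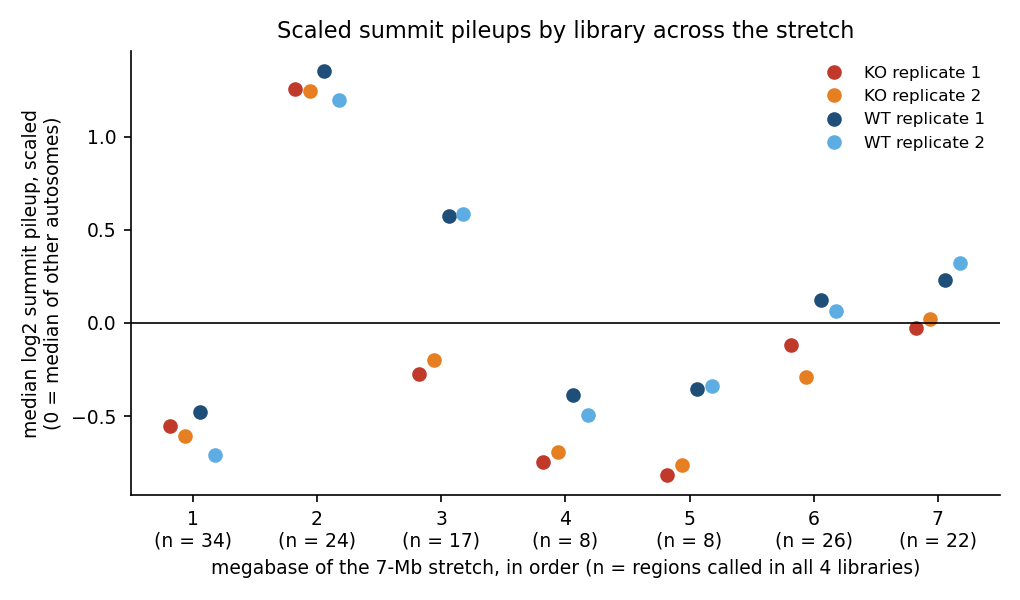
Median scaled log2 summit pileup in each library for the 7 consecutive megabases of the stretch; 0 is the median of the other autosomes and n is the number of shared regions. Knockout and wild-type points overlap in the first and the second megabase (88 to 90 Mb) and stand apart in the later ones, most widely in the third (90 to 91 Mb).

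Of the 17 shared regions between 90 and 91 Mb, 14 had lower scaled pileups in both knockout than in both wild-type libraries, where the other autosomes had 30.7%, and 11 had a relative log2 ratio under -0.5, where they had 7.49%. The median region there had 0.485 times as many raw reads at its summit in the knockout as in wild type. In all the window held 28 regions, 3 lost (10.7%) and 0 gained, where 7.06% and 1.5% of regions were so on the other autosomes. Its median depends on where the window is laid: shifted down by 0.5 Mb the median relative log2 ratio was -0.43, and shifted up -0.68.

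The region with the lowest ratio of the stretch was chr15:90244867-90245663, 797 bp wide. Its summit pileups were 101 and 123 reads in the knockout libraries and 339 and 399 reads in the wild-type libraries. Both knockout values were far under both wild-type values, and the relative log2 ratio was -1.36. Its mean rank was 26.2 percentile points lower in the knockout lists than in the wild-type lists.

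The region chr15:90917922-90919133 had 225 and 253 reads in the knockout libraries and 623 and 698 reads in the wild-type libraries, a relative log2 ratio of -1.10. It is one of 9 shared regions packed into 98.5 kb, from chr15:90878476 to chr15:90976965. In 8 of these 9 the scaled pileups were lower in both knockout libraries than in both wild-type libraries, where 30.7% of the regions of the other autosomes were, with a median relative log2 ratio of -0.70. The cluster was picked after its values were seen. It starts with chr15:90878476-90879377, where the knockout libraries had 134 and 184 reads and the wild-type libraries 368 and 365. It ends with chr15:90976367-90976965, where the knockout libraries had 115 and 176 reads and the wild-type libraries 325 and 362.

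Other regions between these followed the same pattern at several heights. At chr15:90901671-90902908 the knockout libraries had 114 and 142 reads and the wild-type libraries 265 and 332. At chr15:90908865-90909659 the knockout libraries had 68 and 72 reads and the wild-type libraries 142 and 151. At chr15:90930627-90931257 the knockout libraries had 165 and 219 reads and the wild-type libraries 336 and 443. In each of these the genotypes did not overlap, before or after scaling. On the other autosomes 64.9% of regions were lower in both knockout libraries before scaling and 30.7% after it.

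The same megabase held regions that did not follow. At chr15:90098945-90099751 the knockout libraries had 55 and 48 reads and the wild-type libraries 59 and 57, a relative log2 ratio of 0.19. At chr15:90525425-90527720, which is 2296 bp wide, the knockout libraries had 61 and 59 reads and the wild-type libraries 67 and 54, a ratio of 0.36. At chr15:90893963-90895136, inside the cluster of 9, the knockout libraries had 63 and 78 reads and the wild-type libraries 81 and 83, a ratio of 0.14. These were the 3 weakest wild-type summits of the window. The tallest region of the window, chr15:90107871-90109647, had 625 and 774 reads in the knockout libraries and 920 and 1150 reads in the wild-type libraries, a ratio of -0.20.

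**Figure D4:**
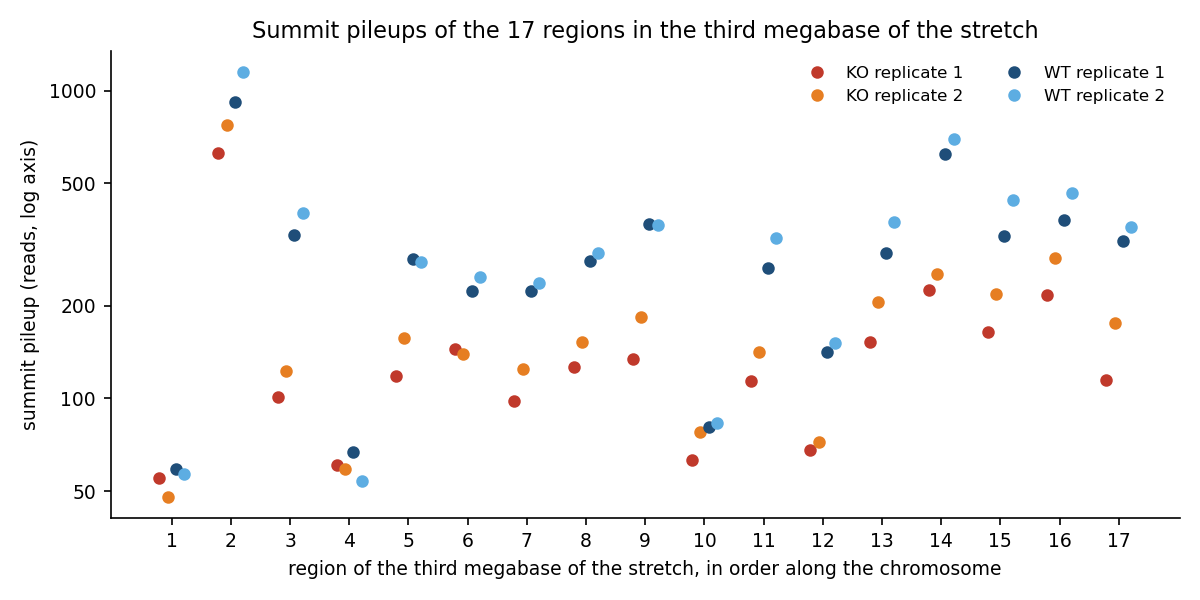
Summit pileup in reads (log axis) of the 17 shared regions between 90 and 91 Mb, in order along the chromosome, in each of the 4 libraries, not scaled. In most regions both knockout points lie well below both wild-type points, while regions 1, 4 and 10 have nearly equal points between 48 and 83 reads.

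Ratios differed with rank across the genome, so the regions were also set against regions of like rank. Divided at the quartiles of the mean percentile over the 4 libraries on the other autosomes, the median relative log2 ratio of those autosomes was 0.16, -0.02, -0.07 and -0.02 from the weakest to the strongest class. The stretch had 0.15 (38 regions), -0.12 (28 regions), -0.42 (41 regions) and -0.05 (32 regions). The medians of its weakest and strongest regions were close to those of the other autosomes. The medians differed more in the middle classes, most in the upper of the 2. In every class, though, more regions of the stretch were lower in both knockout libraries after scaling. In the weakest class 10 of 38 (26.3%) were, against 15.1% on the other autosomes, and in the strongest 14 of 32, against 32.6%. The rest of chromosome 15 followed the other autosomes in every class, with median ratios of 0.18, -0.01, -0.07 and -0.01. Between 90 and 91 Mb, 12 of the 17 regions fell in that upper middle class, with a median of -0.69, and all 12 were lower in both knockout libraries, where 4310 of 10274 regions of this class on the other autosomes were.

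By width, the stretch stood at -0.10, -0.26, -0.11 and 0.04 from the narrowest to the widest quartile, and the other autosomes at 0.03, -0.02, -0.01 and 0.01. In the stretch, 17 of 40, 14 of 21, 21 of 42 and 10 of 36 regions were lower in both knockout libraries after scaling, in the same order. On the other autosomes 28.0%, 33.8%, 32.5% and 28.7% of these classes were. The widest class of the stretch, at 27.8%, was thus close to that of the other autosomes, and the narrower classes were above it.

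**Figure D5:**
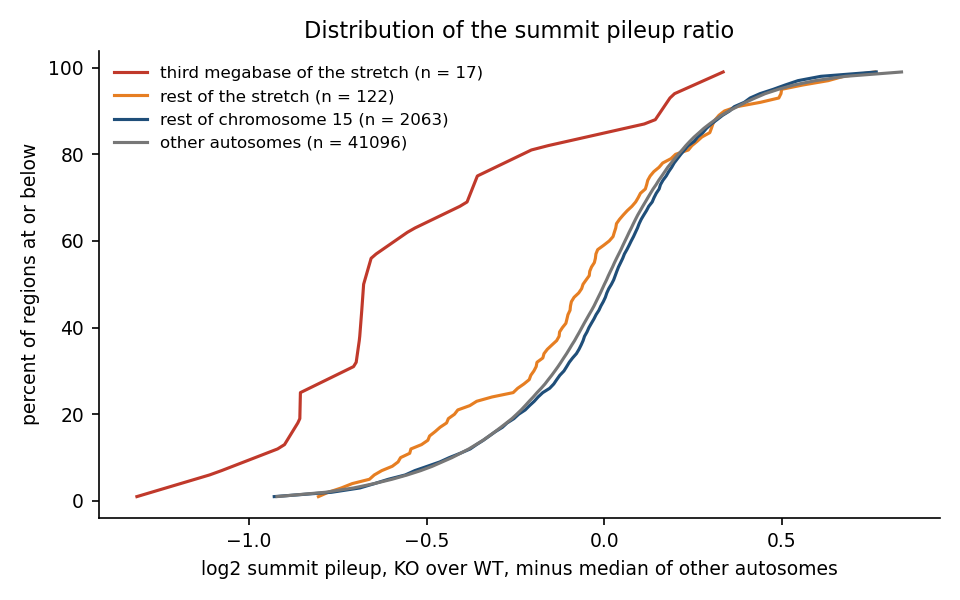
Cumulative percent of shared regions by relative log2 summit pileup ratio (knockout over wild type), for the window from 90 to 91 Mb, the rest of the stretch, the rest of chromosome 15 and the other autosomes. The last 2 curves nearly coincide, the rest of the stretch has a lower quartile of -0.26 against -0.17 and -0.19 for them, and the window lies to the left throughout, with a median of -0.68.

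Without the window from 90 to 91 Mb, the other 122 shared regions of the stretch had a median of -0.06, and without the window from 92 to 93 Mb as well, 114 regions had -0.04. In the window at 92 Mb, 6 of 8 regions were lower in both knockout libraries after scaling and 0 were higher. In the last megabase, from 94 to 95 Mb, 12 of 22 were lower and 6 higher. On the other autosomes 30.7% were lower and 30.9% higher.

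Some regions of the stretch went the other way. The highest ratio belonged to chr15:94620871-94622443, with 102 and 117 reads in the knockout libraries and 64 and 83 reads in the wild-type libraries, a relative log2 ratio of 0.95. It ranked higher too, standing at the 34.2nd and 37.0th percentiles in the knockout and at the 3.98th and 11.7th in wild type. At chr15:89271162-89271789 the knockout libraries had 56 and 57 reads and the wild-type libraries 40 and 45, and at chr15:88650491-88651065 the knockout libraries had 105 and 130 reads and the wild-type libraries 86 and 100. In all 3 regions the raw pileups did not overlap, which occurred upwards in 5 of the 139 regions (3.60%) and downwards in 108 (77.7%), where 3.41% and 64.9% of the regions of the other autosomes did so before scaling.

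The very strongest regions of the stretch barely differed. By mean percentile the first was chr15:89313572-89315057, with 2353 and 2762 reads in the knockout libraries and 2976 and 3233 reads in the wild-type libraries, a relative log2 ratio of 0.08. The next, chr15:89080026-89081263 and chr15:88703014-88704332, had ratios of -0.04 and -0.02, with scaled pileups that overlapped between genotypes. In the whole strongest quartile by mean percentile, 14 of 32 regions of the stretch (43.8%) were lower in both knockout libraries after scaling. On the other autosomes 32.6% of this class were. The widest region, chr15:89062808-89066910, spans 4103 bp and had 1366 and 1631 reads in the knockout libraries and 1837 and 2203 in the wild-type libraries, a ratio of -0.07, and was lower in both knockout libraries after scaling. The second widest, chr15:94340697-94343438, had 787 and 801 reads in the knockout libraries and 824 and 837 in the wild-type libraries, a ratio of 0.30, and was higher in both knockout libraries after scaling.

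Near the limits of the stretch, the last shared region before 88 Mb, chr15:87844459-87845194, had 40 and 45 reads in the knockout libraries and 44 and 58 in the wild-type libraries, and the first one inside, chr15:88131954-88133147, had 80 and 102 in the knockout libraries, against 117 and 126 in wild type. Their relative log2 ratios were 0.11 and -0.06. At the far end, the last region inside, chr15:94913788-94915479, had 76 and 103 reads in the knockout libraries and 149 and 173 in the wild-type libraries, a ratio of -0.49. The first one outside, chr15:95367469-95368018, had 50 and 52 in the knockout libraries, against 37 and 41 in wild type, a ratio of 0.75.

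On the rest of the chromosome the lowest ratios of single regions lay far from each other. The region chr15:81605798-81607161 had 195 and 246 reads in the knockout libraries and 749 and 730 reads in the wild-type libraries, a relative log2 ratio of -1.39. The region chr15:58825513-58826404 had 145 and 180 reads in the knockout libraries and 487 and 524 in the wild-type libraries, a ratio of -1.28. The region chr15:99935816-99937515 had 188 and 256 reads in the knockout libraries and 514 and 862 in the wild-type libraries, a ratio of -1.24. Each was as low as any region of the stretch or nearly so, but the 1-Mb windows that hold them had medians of 0.019, 0.022 and 0.082. Ratios under -1 were found in 12 of the 2063 regions outside the stretch (0.582%) and in 2 of 139 inside (1.44%), where 0.65% of the regions of the other autosomes lay that low.

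The highest ratios outside the stretch belonged to low summits. The region chr15:58309817-58311379 had 71 and 57 reads in the knockout libraries and 36 and 33 in the wild-type libraries, a relative log2 ratio of 1.25. At chr15:59303485-59306958, which spans 3474 bp, the knockout libraries had 69 and 49 reads and the wild-type libraries 35 and 30, and at chr15:55897025-55898820 the knockout libraries had 72 and 75 reads and the wild-type libraries 37 and 48. All 3 lie between 55 and 60 Mb, where 8 of 252 regions were gained (3.17%) and 20 lost (7.94%), against 1.5% and 7.06% on the other autosomes.

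The strongest regions of chromosome 15 by mean percentile also lay outside the stretch. The region chr15:102313668-102314762 had 6043 and 7436 reads in the knockout libraries and 7704 and 8516 reads in the wild-type libraries, and chr15:102425538-102427448 had 4043 and 4491 in the knockout libraries, against 4714 and 5265 in wild type. The region chr15:85518587-85519492 had 3108 and 3720 in the knockout libraries, against 3848 and 4446 in wild type. Their relative log2 ratios were 0.09, 0.14 and 0.08, between the quartiles of the other autosomes, -0.19 and 0.16. After scaling all 3 were higher in both knockout than in both wild-type libraries. On the other autosomes 30.9% of shared regions were higher and 30.7% lower in this way. The widest region of the chromosome, chr15:61855336-61860159, spans 4824 bp and had 608 and 723 reads in the knockout libraries and 829 and 1010 in the wild-type libraries, a ratio of -0.10, and was lower in both knockout libraries after scaling. The next widest, chr15:102008566-102012842, had a ratio of 0.13.

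Ranks within a list do not use the scaling, but they depend on how long the list is, and the knockout lists were shorter. The median shared region stood 3.99 percentile points lower in the knockout lists than in the wild-type lists inside the stretch, 2.26 points lower on the rest of chromosome 15 and 2.14 points lower on the other autosomes. With lists of equal length it stood 4.39 points lower inside and 2.59 points lower on the rest of chromosome 15. Leaving out 1 library moved these values widely: the difference, knockout minus wild type, ran from -5.84 points (without knockout replicate 2) to -1.89 points (without knockout replicate 1) inside, and from -4.36 to -0.50 points outside without the same libraries. Between 90 and 91 Mb the median region stood 13.3 points lower and between 92 and 93 Mb 13.4 points lower. The whole of chromosome 15, at 2.35 points lower, lay within the other autosomes, which ran from 3.20 to 0.287 points lower.

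Chromosome 15 also had a high local background in both genotypes. Relative to the genome-wide level of each library, which is its lowest possible value, the local background at shared regions had a median of 1.71 and 1.77 in the knockout libraries and 1.91 and 1.96 in the wild-type libraries, against 1.51 and 1.59 in the knockout libraries, against 1.72 and 1.77 in wild type on the other autosomes. Of the 18 other autosomes, between 1 and 3 had a higher value, depending on the library. The median fold enrichment of the calls on chromosome 15 was correspondingly low, at 4.07 and 4.20 in the knockout libraries and 5.25 and 5.61 in the wild-type libraries, and in every library 17 of the 18 other autosomes had a higher one. Summit pileups were not low, with medians of 114 and 117 reads in the knockout libraries, against 130 and 142 in wild type, against 117 and 121 in the knockout libraries, against 132 and 141 in wild type on the other autosomes.

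In the stretch the local background had medians of 1.41 and 1.48 in the knockout libraries, against 1.71 and 1.67 in wild type, and the log2 ratio of knockout to wild type was -0.05 relative to the other autosomes. Without the window from 90 to 91 Mb it turned to 0.0038, but without the window at 92 Mb as well it was -0.028. By window it was 0.12, 0.17 and 0.15 at 88, 91 and 92 Mb, and negative in the other windows of the stretch. At 91 Mb the median background was at the lowest possible value, 1.00, in every library. The 0.17 there comes from subtracting the median log2 background ratio of the other autosomes, -0.17. Between 90 and 91 Mb the local background was 1.03 and 1.05 in the knockout libraries, against 1.53 and 1.57 in wild type. It was thus lower in both knockout libraries there, as the summits were. Background and summit were recovered from the same calls, so they are not separate observations. The part of the local background in the lower summits was not tested. At 92 to 93 Mb the local background was at or near the lowest possible value in every library, between 1.00 and 1.02. The positive ratios at 91 and 92 Mb thus do not show a higher background in the knockout. The highest local backgrounds of windows with 8 or more shared regions lay at 76 to 77 Mb, with 3.65 and 3.94 in the knockout libraries and 4.79 and 5.26 in the wild-type libraries, and at 61 to 62 Mb, with 3.29 and 3.58 in the knockout libraries, against 4.34 and 4.59 in wild type.

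Summit positions were stable. On chromosome 15 the summits of the 2 knockout libraries lay a median of 8 bp apart, those of the 2 wild-type libraries 6 bp apart, and those of the 4 crossed pairs between 7 and 11 bp apart. Inside the stretch the summits of the 2 knockout libraries lay 7 bp apart and those of the 2 wild-type libraries 5 bp, with crossed pairs between 6 and 9 bp.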

How the data were processed

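Chromatin accessibility was measured by ATAC-seq in 2 Ssbp4-knockout and 2 wild-type B16-F10 libraries. Peaks were called with MACS2 on GRCm39, per the submitters' processing notes, and each library has its own list. The aligner, tool versions, duplicate filter and Tn5 shift: not given in the sources used here. The authors deposited a display score (not used), the fold enrichment ratio at each summit over local background, the −log10 p-value and −log10 q-value, and the summit position. These depend on library depth; read totals were not used here.

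Summit pileup and local background were recovered by solving fold = (pileup + 1)/(background + 1) together with the Poisson tail (Python 3.11.15, scipy 1.17.1). Over 99.99% of pileups per library came within 0.05 of a whole number. Pileups were scaled by each library's median deviation from the 4-library mean over the other autosomes. Where a library had several calls in a region, the strongest was used. Methods were tested on simulated data.

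Regions are named by fixed rules: highest rank among gained, lost and shared regions, widest, highest and lowest ratio with raw pileups not overlapping, and nearest the limits. The members of the windows from 32 to 33 Mb and from 90 to 91 Mb were named after their values were seen. Members, limits and rules were chosen with earlier results of these data known. Alternatives changed calls, overlap, windows, reference, and left out each library. A gene annotation of this build was not used, so no genes or sequences are given.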

Additional observations from a re-analysis of the deposited data

How the results depend on the processing

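No paired analysis was possible because the sample titles number the replicates but do not say whether same-numbered libraries were handled together. The results come from no test, and pairing leaves each mean log2 ratio as it is. The same-numbered pairs had medians of -0.07 and -0.05 in the stretch. Of the values recomputed, 1 changed sign: the local background ratio of the stretch was 0.0038 without 90 to 91 Mb. With the window at 92 Mb left out as well, this ratio was -0.028. Counts of gained and lost regions depend on the lists. With −log10 q of at least 5, gained regions numbered 33 outside and 3 inside the stretch; with lists of equal length 102 were gained and 131 lost outside, and 14 lost inside. Leaving out 1 library at a time, which loosens the definition, gave 97 to 283 gained and 277 to 458 lost regions outside the stretch, and 11 to 23 gained and 25 to 42 lost inside; the highest gained counts came without knockout replicate 1, the highest lost counts without wild-type replicate 1, tied outside the stretch with knockout replicate 2. The relative pileup ratio (log2) of the stretch ran from -0.098 to -0.043 without each library in turn, nearest 0 without wild-type replicate 1. It was -0.089 among regions above the median percentile, -0.084 against autosomes without chromosomes 6, 14 and 18 and 20 to 22 Mb of chromosome 8, and -0.060 without 90 to 91 Mb and -0.088 with lists of equal length, both chosen after seeing the data. Outside the stretch it ran from 0.012 to 0.021 without each library, with 0.0081 among regions above the median and 0.031 with that smaller reference. The window from 90 to 91 Mb, itself picked after seeing the data, ran from -0.75 to -0.61 without each library, with -0.64 above the median, -0.43 when shifted down by 0.5 Mb and -0.68 when shifted up. The local background ratio of the stretch ran from -0.053 to -0.042 without each library, with -0.052 at the stricter q, -0.078 above the median, -0.046 with equal lists and -0.034 with the smaller reference. Outside it ran from 0.0062 to 0.020, with 0.0090 at the stricter q, 0.0095 above the median, 0.0049 with equal lists and 0.038 with the smaller reference. Rank changes ran from -5.84 to -1.89 points inside and from -4.36 to -0.50 outside without each library, lowest without knockout replicate 2, with -4.36 inside at the stricter q, -3.36 inside without 90 to 91 Mb, -4.39 inside and -2.59 outside with equal lists, and -2.84 inside and -1.49 outside above the median; the smaller reference does not enter them. Most gained and lost regions lie at the weak end of the lists; read totals were not used, so the part of depth was not tested.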
